A study of Mus musculus with 80 samples.

Results

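The endoplasmic reticulum (ER) chaperone genes of the unfolded protein response were followed through every preparation of Cx3cr1-NuTRAP mouse brain in the series. The list of 9 genes held Hspa5, Hsp90b1, Calr, Pdia4, Pdia6, Herpud1, Dnajb9, Sdf2l1 and Xbp1, and its members were taken by gene symbol from the 2 deposited expression tables. Of these 9 genes, 8 had a row in both the sort comparison table (15919 genes) and the cell preparation comparison table (16000 genes), and all 8 passed the filter on low counts in every fit. The expression of Xbp1 was not analysed here. All mice carried the genotype Cx3cr1(Jung)-cre/Ert2+;NuTRAP+, in which a tamoxifen-inducible Cre under the Cx3cr1 promoter switches on an EGFP-tagged ribosomal protein, and all received tamoxifen at 100 mg/kg from about 3 months of age. There was no group without the alleles or without tamoxifen.

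Translating ribosome affinity purification (TRAP) pulls down the tagged ribosomes with their RNA, so each preparation gave an Input library (all RNA in the lysate) and a TRAP library (RNA on tagged ribosomes). The Cx3cr1 promoter is active in microglia and in other cells of the mononuclear phagocyte lineage. In the sort comparison (48 libraries) the preparations were tissue homogenised directly in lysis buffer (Tissue, n = 4), an unsorted enzymatic and mechanical cell suspension (Cell, n = 4), CD11b magnetic bead selection (autoMACS, n = 4), magnetic selection followed by cartridge-based sorting (autoMACS to Tyto, n = 3), cartridge-based sorting (Tyto, n = 5) and cytometer-based sorting (FACSAria, n = 4). The cell preparation comparison (32 libraries, n = 4 per group and fraction) held Tissue, the same enzymatic suspension without inhibitors, Cell (−), or with transcription and translation inhibitors, Cell (+), and a purely mechanical Dounce suspension made in the cold. The hemispheres of 4 brains gave the Tissue and Cell groups of the sort comparison, the Tissue group of the cell preparation comparison came from those same 4 mice, and Cell (−) and Cell (+) were a pair of hemispheres from each of 4 other mice. The Dounce group came from 4 further mice, each of which gave both fractions. Per the paper, RNA from Dounce-Input needed a whole brain, where the other methods used a hemisphere. Dounce cells were cleaned on a Percoll gradient, and the enzymatic suspensions with a debris removal solution.

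The unfolded protein response is the program by which a cell adjusts its ER folding capacity. The ER-resident sensors IRE1 (encoded by Ern1), ATF6 and PERK (encoded by Eif2ak3) are held in check by the chaperone BiP, and when unfolded protein accumulates they drive transcription of chaperones, oxidoreductases and degradation factors and lower general translation. Hspa5 encodes BiP, Hsp90b1 encodes the ER HSP90 paralog GRP94, and Calr encodes calreticulin, the lectin chaperone of glycoproteins. Pdia4 and Pdia6 are protein disulfide isomerases, Sdf2l1 and Dnajb9 encode partners of BiP, the latter a J-domain co-chaperone, and Herpud1 encodes a membrane component of the ER-associated degradation machinery. Microglia, the resident macrophages of the brain, secrete and display many glycoproteins that fold in this compartment.

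These genes are classic targets of a short promoter element, so the RefSeq upstream sequences (GRCm38.p6) are shown for the 2 members, Hspa5 and Herpud1, whose TRAP levels with and without inhibitors did not overlap. All 9 listed genes matched an entry. The ER stress response element (ERSE) was searched as CCAAT, 9 bases of any kind, then CCACG, and ERSE-II as ATTGG, 1 base of any kind, then CCACG, each on both strands of the 250 bases before and 50 bases from the start, with the UPRE searched as TGACGTGG. Capitals mark the fixed bases of the element. The upstream sequence of Hspa5 lies at chr2:34771840-34772089 on the plus strand, and that of Herpud1 at chr8:94386179-94386428 on the plus strand.
Hspa5: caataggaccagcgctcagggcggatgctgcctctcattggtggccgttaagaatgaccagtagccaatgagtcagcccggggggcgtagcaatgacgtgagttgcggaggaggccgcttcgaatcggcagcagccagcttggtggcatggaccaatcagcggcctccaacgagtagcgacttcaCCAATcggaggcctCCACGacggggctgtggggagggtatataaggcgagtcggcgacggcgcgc
Herpud1: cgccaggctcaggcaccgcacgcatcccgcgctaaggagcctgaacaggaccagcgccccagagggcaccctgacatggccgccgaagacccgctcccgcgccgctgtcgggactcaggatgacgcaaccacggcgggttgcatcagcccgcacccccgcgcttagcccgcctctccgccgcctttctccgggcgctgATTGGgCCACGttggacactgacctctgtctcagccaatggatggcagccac

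The marked element of Hspa5 began 65 bases upstream of the RefSeq start, and that of Herpud1 began 52 bases upstream. Exact ERSE matches were found in 4 of the 9 listed genes (Hspa5, Hsp90b1, Calr and Pdia6). For Hsp90b1, Calr and Pdia6, TRAP levels with and without inhibitors overlapped. Any link between an element and the inhibitor difference was not tested. ERSE-II matched in 1 gene (Herpud1) and the exact UPRE string in 0. Near matches were not searched. Among all 32851 promoters of the same length, 0.119% held an ERSE, 0.0365% held ERSE-II and 0.676% held the UPRE. The elements of the other members are shown because they differ only in the bases between the fixed ends.
Hsp90b1, plus strand, 212 to 194 bases upstream: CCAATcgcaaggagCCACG
Hsp90b1, minus strand, 107 to 89 bases upstream: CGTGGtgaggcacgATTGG
Calr, minus strand, 162 to 144 bases upstream: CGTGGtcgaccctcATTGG
Pdia6, plus strand, 98 to 80 bases upstream: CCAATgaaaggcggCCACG

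Matches on the minus strand are printed as they read along the gene's own strand. A match is a string of letters, not a measured binding site, and the windows without one were not examined further. In the build of the deposited tables (mm10), Hspa5 spans 34772090 to 34776529 on chromosome 2 and Herpud1 spans 94386500 to 94395358 on chromosome 8, both on the plus strand.

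Deposited counts summed to 7129464 to 20168116 per library in the sort comparison and to 2471448 to 14650287 in the cell preparation comparison. There the 4 Dounce-TRAP libraries were the shallowest (2471448 to 4724538). Per the paper, RNA integrity in that comparison was lowest in Dounce-Input. It also reports more biased coverage along gene bodies in the Tissue and Dounce groups than in Cell (−) and Cell (+). The part of RNA quality in the results below was not tested. The summed level of 5 microglia markers (Cx3cr1, P2ry12, Tmem119, Csf1r and C1qa) ran from 144 to 231 CPM (counts scaled to a common library total) in Tissue-Input, 3488 to 4377 in Tissue-TRAP, 2874 to 3790.1 in Cell-Input and 22819 to 24198 in Cell-TRAP. In the sorted groups it ran from 13435 to 26429.7 in Input and 26143 to 32429 in TRAP. The defining markers of the labelled cell type were present in every group, at levels that differed by preparation. In bulk libraries, fewer cells of a type and less RNA per cell cannot be told apart. The autoMACS-Input library of mouse 72 was the shallowest of the sort comparison (7129464 counts) and had 712 CPM of Calr against 1207 to 1311 in the other 3 libraries of its group.

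Across the sort comparison each member had its lowest mean in Tissue-Input. Hspa5 averaged 411 ± 28.5 CPM (SD, n = 4) in Tissue-Input, 509 ± 76.4 in Tissue-TRAP, 632 ± 64.5 in Cell-Input and 1407 ± 375 in Cell-TRAP. In the sorted groups Hspa5 averaged from 938 ± 70.1 (Tyto, n = 5) to 1113 ± 157 (autoMACS, n = 4) in Input and from 1344 ± 104 (Tyto) to 1564 ± 83.2 (autoMACS to Tyto, n = 3) in TRAP. In the order of the 12 group means, each Hspa5 group overlapped the next in its range except Tyto-Input, whose lowest library (837 CPM) lay above the highest Cell-Input library (716 CPM). Herpud1 had its clear steps lower down: its ranges were separate between Tyto-Input (224 to 252 CPM) and Cell-Input (92.8 to 121 CPM), between Cell-Input and Tissue-TRAP (70.2 to 91.6 CPM), and between Tissue-TRAP and Tissue-Input (50.6 to 66.8 CPM). Levels are CPM scaled by the trimmed mean of M values (TMM) across all libraries of a comparison and are not corrected for gene length, so they are compared between groups and not between genes.

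**Figure D1:**
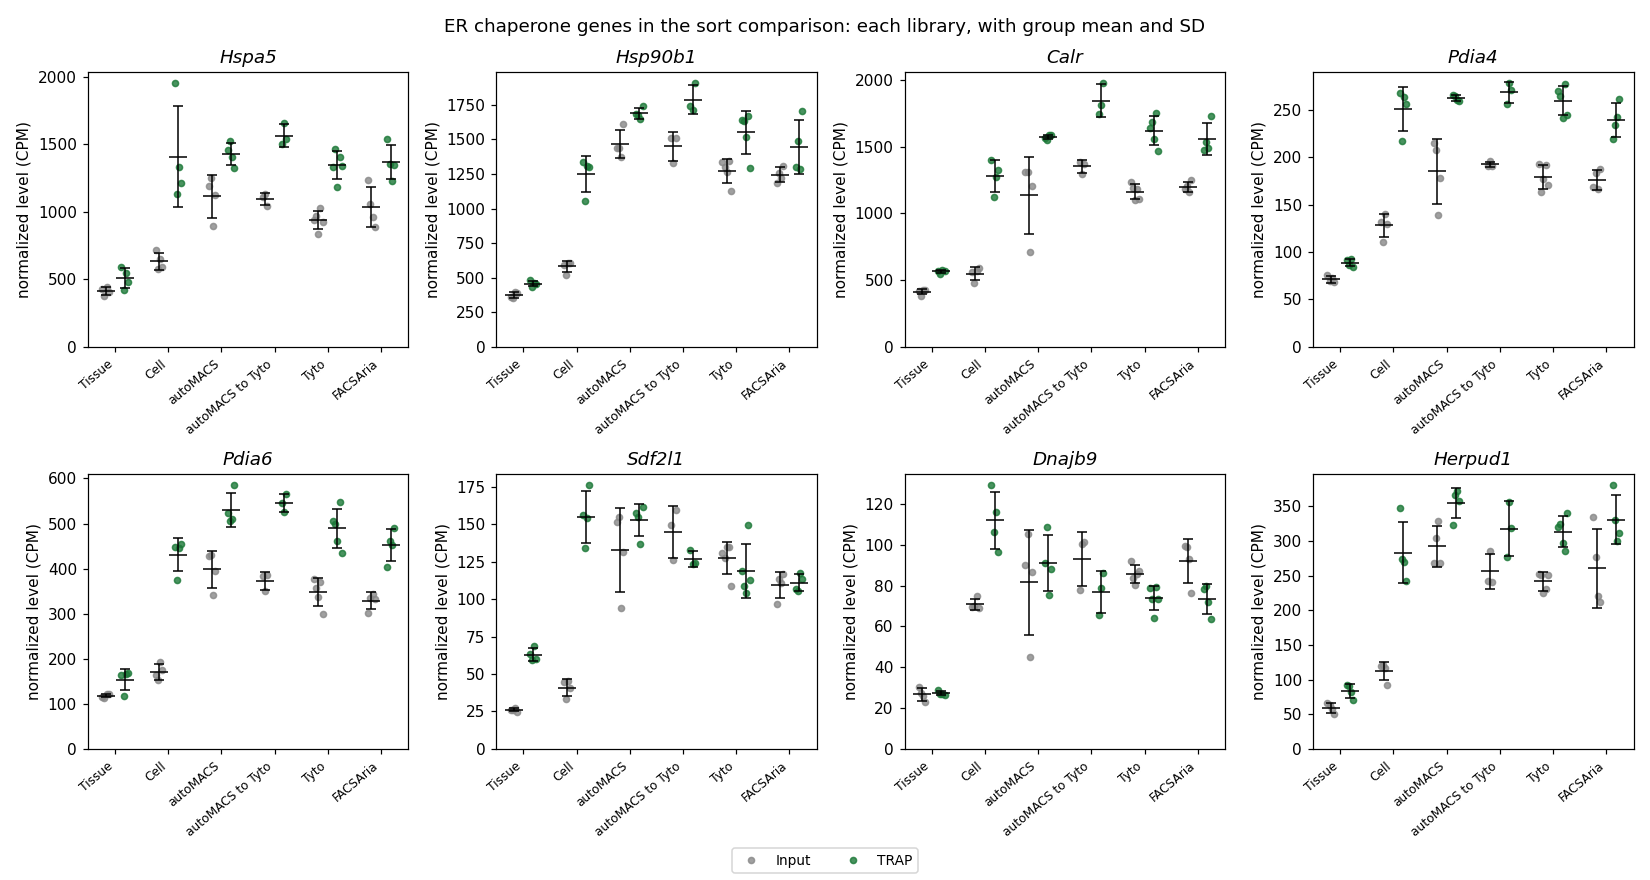
Level of each of the 8 ER chaperone genes in every library of the sort comparison (y axis: TMM-normalised CPM; x axis: preparation). Points are libraries (grey, Input; green, TRAP), and bars give the group mean and SD; Tissue-Input has the lowest mean for each gene and the Cell-TRAP points lie above the Tissue-TRAP points, with Cell-TRAP of mouse 946 highest for Hspa5 at 1956 CPM.

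The first comparison asked how the TRAP fraction differed once the tissue had been turned into a cell suspension. The marker sums of microglia (above) and neurons (below) also differed between these TRAP fractions. All 8 members were higher in Cell-TRAP than in Tissue-TRAP, by 2.29-fold to 4.15-fold, and each was higher in 4 of 4 mice. A call required a false discovery rate (FDR; edgeR quasi-likelihood test with Benjamini-Hochberg adjustment over all genes) under 0.1 and a fold above 2. Of the 14979 genes tested, 25.1% were called higher in this comparison. The median of the 8 members was 1.49 on the log2 scale against −0.01 for all genes tested. No library range overlapped between the groups for any of the 8 members, and 36.1% of all genes were likewise higher without overlap.

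Among the chaperones, Hspa5 measured 590.4, 418, 549 and 479 CPM in Tissue-TRAP of mice 946, 947, 948 and 949. In Cell-TRAP of the same mice it measured 1956, 1130.2, 1331 and 1209.7 CPM. The lowest cell library was thus well above the highest tissue library, and mouse 946 was the highest in both groups. The fitted Hspa5 change was 1.48 (SE 0.13, FDR 7.67e-11) on the log2 scale, a 2.79-fold rise, and without mouse 946 it was 1.26. Hsp90b1 went from 480.0, 433, 460.5 and 452 CPM to 1336, 1057, 1306 and 1302 CPM in the same mouse order, a rise of 2.77-fold. Calr went from 569, 546, 575 and 569.9 CPM to 1403, 1123, 1272 and 1326 CPM, and its 2.29-fold rise was the smallest of the 8.

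The disulfide isomerases moved by a similar amount. Pdia4 rose 2.86-fold, from 88.6 ± 3.87 to 251 ± 23.2 CPM (SD, n = 4 each), and Pdia6 rose 2.83-fold, from 154 ± 23.7 to 431 ± 37.2 CPM. The BiP partner Dnajb9 had the largest log2 change of the 8, 2.05 (SE 0.11, FDR 1.11e-14), from 28.8, 26.9, 27 and 26.3 CPM in Tissue-TRAP to 129, 106, 116 and 96.5 CPM in Cell-TRAP. The other partner, Sdf2l1, rose 2.49-fold, from 63 ± 4.3 to 155 ± 17.2 CPM. Herpud1, the degradation factor, went from 91.6, 90.3, 82.4 and 70.2 CPM to 347, 274, 269.9 and 243 CPM, a log2 change of 1.78 (SE 0.11, FDR 9.09e-14). The Cell-TRAP and Tissue-TRAP ranges were far apart for each of these genes.

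These calls depended in part on scaling. With DESeq2 size factors in place of TMM, and with limma on the deposited normalised values, 6 of 8 members were called: Calr (0.86 and 0.75) and Sdf2l1 (0.98 and 0.87) stayed under 2-fold. The share of called genes that were higher was 46.1% with TMM and 35% with DESeq2 size factors, whose all-gene median was −0.34, so relative to all genes the member median was between 1.50 and 1.54 over the 21 settings tried. The summed neuron marker level was 4656 to 5478 CPM in Tissue-TRAP and 106 to 303 CPM in Cell-TRAP, and the microglia marker sum rose as given above; the part of this shift in composition in the result was not tested.

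In the Input of the same preparations, 2 members were called higher in Cell than in Tissue, against 28.5% of 15774 genes: Dnajb9 (log2 change 1.51, SE 0.18, FDR 9.15e-08) and Herpud1 (1.02, SE 0.13, FDR 1.81e-07). The other 6 had log2 differences between 0.50 and 0.94 and an FDR under the threshold but were under 2-fold. Each of the 8 was higher in 4 of 4 mice, without overlap between the groups, as were 38.9% of all genes by range. Herpud1 measured 66.8, 63.5, 57 and 50.6 CPM in Tissue-Input and 120, 121, 117 and 92.8 CPM in Cell-Input. Its call was lost when mouse 823 or 948 was left out (0.92 and 0.98), with DESeq2 size factors (0.93) and with the mouse as a block (0.89), which left Dnajb9 as the member called.

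Against Cell-TRAP, 0 of 8 members were called by edgeR, DESeq2 or limma in the mean of the 4 sorted groups, where 24.4% of genes were called in either direction; 6 of 8 had an unadjusted p under 0.05. Dnajb9 differed by −0.54 (SE 0.08, FDR 3.79e-06) and Sdf2l1 by −0.32 (SE 0.07, FDR 0.000612) on the log2 scale. Hsp90b1 and Calr differed by 0.34 and 0.33, and Hspa5 by −0.01 with a 95% interval of −0.21 to 0.19, which became 0.27 without the Cell library of mouse 946. Against Tissue-TRAP, 7 of 8 members were called higher in the sorted groups (25.9% of genes called higher), with log2 changes from 1.47 for Hspa5 to 1.96 for Herpud1. Sdf2l1, at 0.99, sat at the edge of the fold threshold and passed it with mouse 69, 72, 822 or 948 left out or with no filter on low counts (1.00 to 1.04).

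In Input, 1 member was called higher in the sorted groups than in Cell-Input, Sdf2l1 (log2 change 1.42, SE 0.12, FDR 1.21e-10), where 17.1% of genes were called higher. Sdf2l1 measured 44.8, 33.1, 45.1 and 40.5 CPM in Cell-Input, and its lowest sorted Input library was 93.9 CPM, the autoMACS library of mouse 72. Hsp90b1 and Herpud1 were just under the threshold at 0.99 each, Calr was at 0.91 and Dnajb9 at 0.09. Leaving out mouse 72 gave 2 called members, since Hsp90b1 reached 1.00. Leaving out mouse 66, 73, 946, 947, 949 or 991 also gave 2, by Hsp90b1 or Herpud1, and leaving out mouse 823 or 948 gave 3. The microglia marker sum rose beside these values, as given above, and its part in them was not tested.

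No member was called between the 4 sorting methods by edgeR or limma, and 1 in Input and 5 in TRAP had an unadjusted p under 0.05. The largest difference between any pair of sorted group means lay between 0.14 (Pdia4) and 0.42 (Sdf2l1) log2 units in Input and between 0.16 (Pdia4) and 0.47 (Sdf2l1) in TRAP, where 7.4% and 4.18% of genes were called by the F test and fold. Sdf2l1 in TRAP had the lowest FDR of the 8 (0.00281) without passing 2-fold: its libraries ran from 137 to 162 CPM after autoMACS, 123 to 133 after autoMACS to Tyto, 104 to 149.6 after Tyto and 105 to 117 after FACSAria. The Tyto and FACSAria groups share mice 69, 945 and 991, and the autoMACS and autoMACS to Tyto groups share mice 66, 67 and 73.

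**Figure D2:**
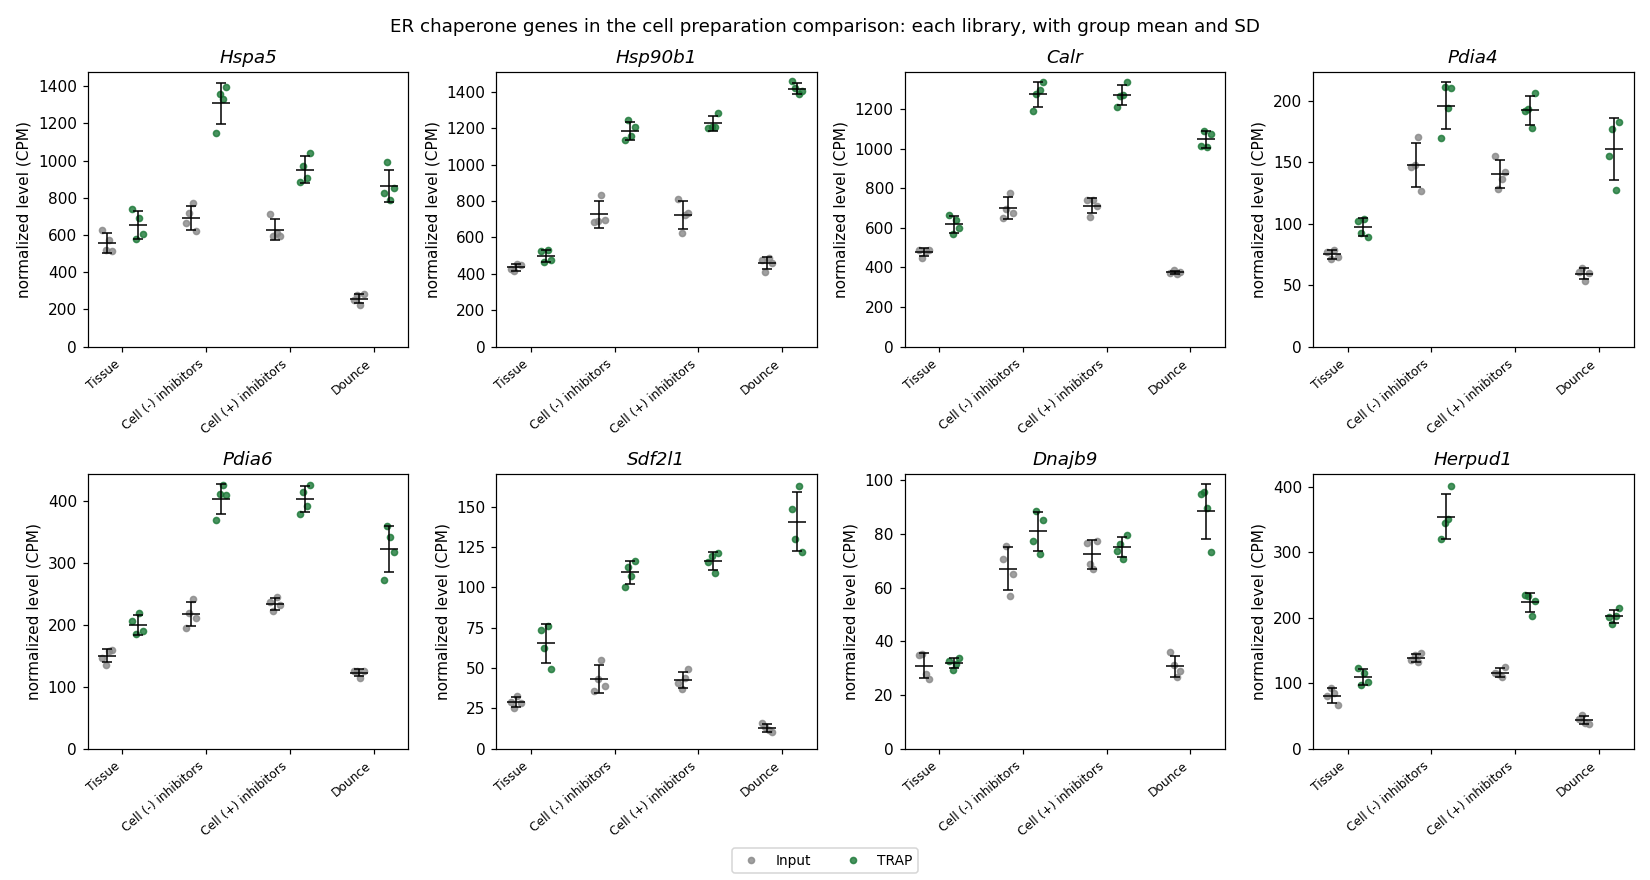
Level of each of the 8 ER chaperone genes in every library of the cell preparation comparison (y axis: TMM-normalised CPM; x axis: preparation). Points are libraries (grey, Input; green, TRAP), and bars give the group mean and SD; Herpud1 and Hspa5 are lower in Cell (+) and Dounce TRAP than in Cell (−) TRAP, and Dounce-Input is the lowest group for Hspa5.

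The cell preparation comparison repeated the suspension step in other mice and added a condition in which transcription and translation inhibitors were present during the warm dissociation step. In TRAP, 7 of 8 members were called higher in Cell (−) than in Tissue, against 22.3% of genes, and the median of the 8 was 1.08 against −0.13 for all genes. Herpud1 rose most, 3.35-fold (log2 change 1.74, SE 0.10, FDR 1.64e-11), followed by Dnajb9 (2.62-fold) and Hsp90b1 (2.46-fold). Sdf2l1 was the member not called, at 0.79 (SE 0.12). Hspa5 (1.05) and Pdia4 (1.06) were close to the fold threshold, and both lost the call when mouse 157 or 1362 was left out, which gave 5 members; Hspa5 alone lost it without mouse 947 (0.99) and with no filter on low counts. These Tissue libraries come from other mice than the cell suspensions and the groups were not paired. They come from the same mice as the Tissue group of the sort comparison, so the Tissue side is not independent of it.

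With inhibitors, 6 of 8 members were still called higher in Cell (+)-TRAP than in Tissue-TRAP, where 21.6% of genes were called higher. Hsp90b1 was 2.56-fold higher, Dnajb9 2.44-fold, Calr 2.14-fold, Herpud1 2.13-fold, Pdia6 2.09-fold and Pdia4 2.06-fold. Hspa5, at 0.60 (SE 0.10, FDR 2.2e-05), and Sdf2l1, at 0.89 (SE 0.13, FDR 3.68e-06), did not pass 2-fold. Pdia4 lost its call with no filter on low counts or without mouse 1362 (0.98), which left 5 members. Both TRAP comparisons with Tissue share the same Tissue libraries. The microglia marker sum was 4711 to 5465 CPM in this Tissue-TRAP group, 25752 to 29257 in Cell (−)-TRAP and 27611 to 28489.9 in Cell (+)-TRAP.

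The direct comparison of Cell (+) with Cell (−) asks which members differed with the inhibitors. In TRAP 0 of 8 passed both FDR and fold by edgeR, DESeq2 or limma, where 0.637% of genes did by edgeR; 2 had an unadjusted p under 0.05. By FDR alone 2 members were lower, Herpud1 and Hspa5, against 1.02% of genes, and both were lower without overlap, as were 5.45% of genes. Herpud1 measured 320.0, 345, 351 and 401 CPM in Cell (−)-TRAP of mice 156, 157, 1361 and 1362 and 234, 233, 202 and 225 CPM in Cell (+)-TRAP of the same mice. The groups did not overlap, and every mouse was lower with inhibitors, by −0.45 to −0.83 log2 units. The fitted difference was −0.66 (SE 0.10, FDR 0.000554, 95% interval −0.86 to −0.45), and its FDR passed in all 18 alternative analyses.

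Hspa5 measured 1149, 1359.6, 1329.8 and 1394 CPM without inhibitors and 886, 970.2, 907 and 1043 CPM with them, in the same mouse order. All 4 mice were again lower with inhibitors and the groups did not overlap. The fitted difference was −0.45 (SE 0.10, FDR 0.0184, 95% interval −0.65 to −0.25), but its FDR was 0.239 without mouse 1361 and 0.163 without mouse 157. The fitted differences of the other 6 members lay between −0.10 and 0.10, although Dnajb9 was lower and Sdf2l1 higher in 4 of 4 mice (FDR 0.935 and 0.955). Their intervals bound the difference: Hsp90b1 −0.09 to 0.20, Calr −0.15 to 0.15, Pdia4 −0.25 to 0.21, Pdia6 −0.19 to 0.20, Sdf2l1 −0.16 to 0.36 and Dnajb9 −0.32 to 0.11. The microglia marker sums of both groups overlapped.

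In Input, 0 of 8 members were called with inhibitors by any of the 3 tools, where 0.311% of genes were by edgeR; 1 had an unadjusted p under 0.05. Herpud1 was again the lowest, at −0.26 (SE 0.11, FDR 1), with 136, 142, 132 and 145 CPM without and 116, 114, 109 and 125 CPM with inhibitors in mice 156, 157, 1361 and 1362. It was the only member whose Input groups did not overlap (1.46% of genes were lower without overlap), and all 4 mice were lower, but the difference did not pass the test across all genes. Hspa5 was lower in 3 of 4 mice in Input. Whether the inhibitor difference was larger in TRAP than in Input was tested directly: 0 of 8 members were called by any of the 3 tools, against 0.144% of genes by edgeR, and 2 had an unadjusted p under 0.05, with −0.40 for Herpud1 (SE 0.15, FDR 0.613) and −0.32 for Hspa5 (SE 0.15, FDR 0.971). Against Tissue-Input, 0 members were called in Cell (−)-Input (44.7% of genes called in either direction), although 7 had an unadjusted p under 0.05 and 1 was called by limma or with mouse 946, 947 or 1361 left out, and 1 was called higher in Cell (+)-Input (25.5% of genes called higher), Dnajb9 at 1.08 (SE 0.13, FDR 2.82e-07), which had been 0.97 without inhibitors.

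**Figure D3:**
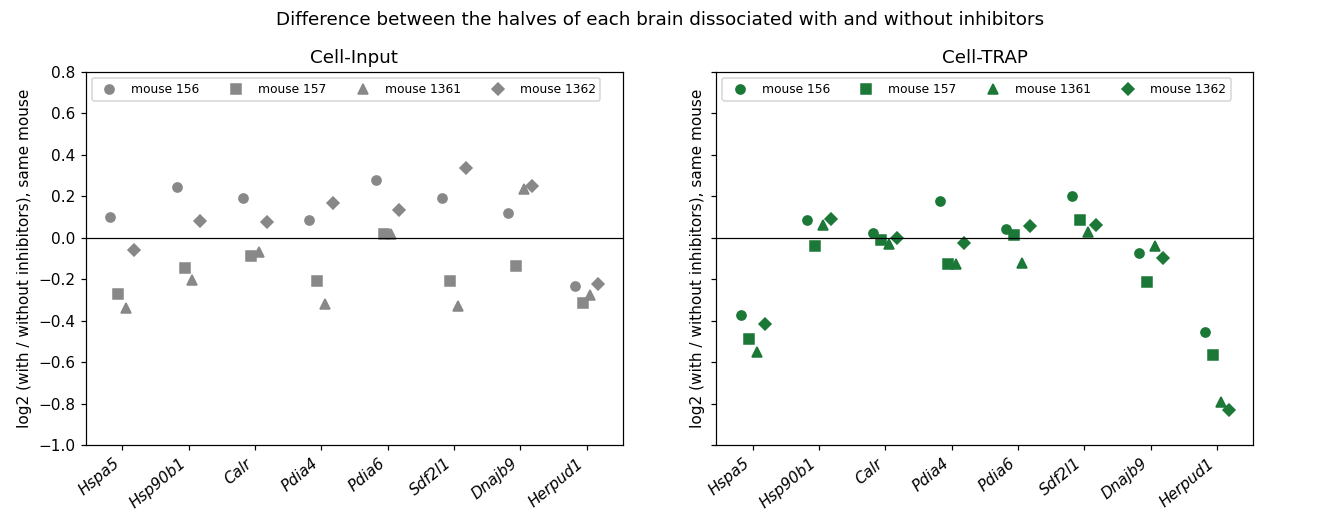
Log2 difference between Cell (+) and Cell (−) within each of 4 mice (y axis), for each gene (x axis), in Input (left) and TRAP (right); each symbol is 1 mouse. In TRAP all 4 mice lie well below 0 for Hspa5 and Herpud1, with Herpud1 from −0.83 to −0.45 and Hspa5 from −0.55 to −0.37; the other 6 genes lie between −0.22 and 0.20.

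The cold Dounce preparation gave a different order of members. In TRAP, 3 of 8 were called higher than in Tissue, where 23.2% of genes were: Hsp90b1 (1.57, SE 0.07, FDR 1.9e-12), Dnajb9 (1.53, SE 0.11, FDR 6.23e-10) and Sdf2l1 (1.16, SE 0.13, FDR 1.9e-07). Hsp90b1 measured 1458, 1423, 1388 and 1404 CPM in Dounce-TRAP of mice 179 to 182 and 523, 465, 529 and 477 CPM in Tissue-TRAP of mice 946 to 949. The 2 genes that were lower with inhibitors were among the members not called, Herpud1 at 0.94 and Hspa5 at 0.46. Calr, Pdia4 and Pdia6, which were not lower with inhibitors by FDR, were not called either. Herpud1 reached the threshold without mouse 946 (1.00), which gave 4 members. The microglia marker sum was 20043 to 24922 CPM in Dounce-TRAP.

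Against Cell (−)-TRAP, 0 of 8 members were called in Dounce-TRAP by any of the 3 tools, where 28.7% of genes were called in either direction by edgeR; 7 had an unadjusted p under 0.05. By FDR alone 5 members were lower, against 29.4% of genes: Herpud1 by −0.80 (SE 0.10), Hspa5 by −0.59 (SE 0.10), Pdia6 by −0.31, Pdia4 by −0.28 and Calr by −0.28. Hsp90b1 (0.27) and Sdf2l1 (0.37) were higher by FDR alone, and Dnajb9 was at 0.14 with an interval of −0.08 to 0.36. Herpud1 measured 201, 189, 202 and 215 CPM and Hspa5 824, 990.3, 788 and 851 CPM in Dounce-TRAP, close to their Cell (+) levels. This comparison shares the Cell (−) libraries with the inhibitor comparison, so the 2 are not independent. The neuron marker sum was 991 to 1796 CPM in Dounce-TRAP against 77.2 to 174 in Cell (−)-TRAP, and the endothelium sum was 55.5 to 71.4 against 493 to 1102, and their part in the result was not tested.

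In Dounce-Input, 3 members were lower than in Cell (−)-Input, where 28% of genes were called lower: Sdf2l1 (−1.39, SE 0.16, FDR 1.44e-07), Herpud1 (−1.33, SE 0.11, FDR 2.66e-09) and Hspa5 (−1.07, SE 0.11, FDR 3.85e-08). Sdf2l1 measured 15.9, 13.3, 11.4 and 10.3 CPM in Dounce-Input and 35.7, 42.9, 55.1 and 38.9 CPM in Cell (−)-Input of mice 156, 157, 1361 and 1362. Pdia4, at −0.96, was also called by limma (−1.03) and without mouse 1362 (−1.02), which gave 4 members. All 8 members were lower without overlap between the groups, as were 44.7% of all genes. Against Tissue-Input 0 were called by edgeR or limma (50.2% of genes called in either direction by edgeR) and 4 had an unadjusted p under 0.05, with Sdf2l1 at −0.95, Hspa5 at −0.90 and Herpud1 at −0.69 and the other 5 between −0.14 and 0.28. Sdf2l1 was called here by DESeq2 or its size factors (−1.01), in a fit on these libraries alone (−1.05) and without mouse 179 (−1.09) or 947 (−1.01). The microglia marker sum was 879 to 1459 CPM in Dounce-Input and 3890.0 to 6525 in Cell (−)-Input.

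**Figure D4:**
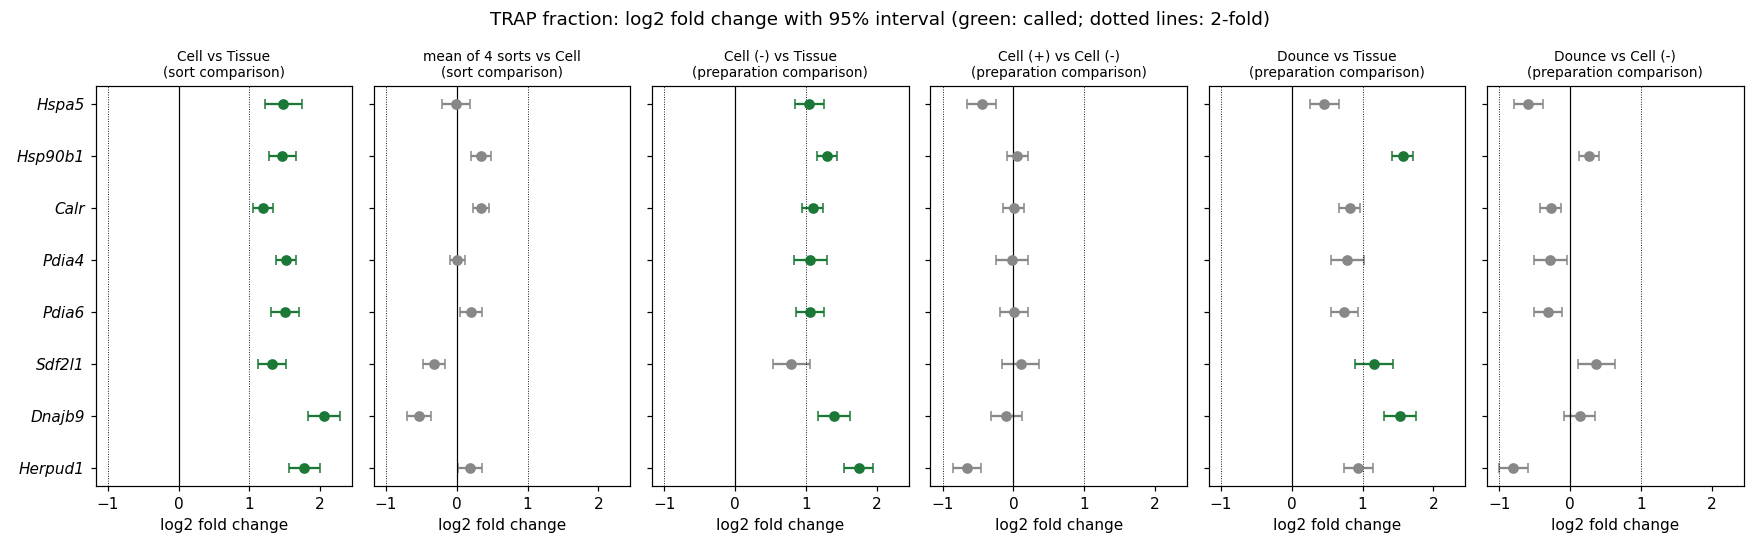
Log2 fold change of each gene (x axis; points, edgeR estimate; bars, 95% interval) in 6 comparisons of the TRAP fraction. Green marks genes past both FDR and 2-fold (dotted lines); all 8 are green for Cell against Tissue in the sort comparison, and Hspa5 and Herpud1 lie below 0 for Cell (+) and for Dounce against Cell (−).

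TRAP was also set against Input within each preparation. The microglia marker sum rose from Input to TRAP in Tissue and Cell of the sort comparison and in Cell (−), as given above. The part of this enrichment in the differences below was not tested. In Tissue, 1 member, Sdf2l1, was called higher in TRAP in both experiments. Its log2 change was 1.27 (SE 0.12, FDR 2.1e-12) in the sort comparison, where 9.21% of genes were called higher. In the cell preparation comparison it was 1.18 (SE 0.14, FDR 3.69e-08), where 8.2% were. Sdf2l1 measured 26.2, 26.1, 27.5 and 24.7 CPM in Tissue-Input and 63.7, 59.1, 68.7 and 60.3 CPM in Tissue-TRAP of mice 946 to 949. The other 7 lay between 0.03 (Dnajb9) and 0.49 (Herpud1) in the sort comparison. The same mice supplied both Tissue groups, so the second value is a repeat on the same animals and not independent.

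In Cell, 6 of 8 members were called higher in TRAP than in Input in the sort comparison (16.7% of genes called higher), led by Sdf2l1 (1.92, SE 0.12, FDR 1.96e-18), Herpud1 (1.33, SE 0.12) and Pdia6 (1.33, SE 0.09). The count rested on scaling and on single mice: 1 member, Sdf2l1, was called with DESeq2 size factors, and 2 or 3 were called with mouse 946, 947, 948 or 949 left out. Relative to the median of all genes, which was −0.07 with TMM, the 8 members were 0.73 to 1.99 higher, as they were with DESeq2 size factors, whose all-gene median was −0.48. In the other experiment 2 were called in Cell (−) (10.6% of genes), Herpud1 (1.35) and Sdf2l1 (1.34), and 1 in Cell (+) (9.71% of genes), Sdf2l1 (1.45). There the all-gene medians were −0.43 and −0.39. With the mouse as a block and only these libraries normalised, 6 members were called in Cell (−) and 5 in Cell (+), the same counts as without the block; leaving Dounce mouse 181 out of the normalisation also gave 6 and 5.

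In the mean of the sorted groups 0 of 8 members were called between TRAP and Input by any of the 3 tools, where 18.9% of genes were called in either direction by edgeR; 7 had an unadjusted p under 0.05. Pdia4 (0.49), Pdia6 (0.48), Hspa5 (0.45) and Calr (0.44) were highest, and Dnajb9 (−0.17) and Sdf2l1 (−0.02) lowest. Sdf2l1, at more than 2-fold in Tissue and in each unsorted suspension, had a 95% interval of −0.13 to 0.10 in the sorted cells. In Dounce, all 8 members were called higher in TRAP (20.8% of genes called higher). Sdf2l1 rose 10.9-fold, from 15.9, 13.3, 11.4 and 10.3 CPM in Input to 148, 129.7, 163 and 122 CPM in TRAP of mice 179 to 182. Herpud1 rose 4.65-fold, Hspa5 3.34-fold and Hsp90b1 3.10-fold, and the smallest change was that of Pdia6, 2.63-fold. The summed microglia markers were also higher in Dounce-TRAP than in Dounce-Input, as given above, and their part was not tested. Nor was that of the low RNA integrity that the paper reports for Dounce-Input.

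The difference between TRAP and Input was larger in Cell than in Tissue for each member by FDR alone: 8 of 8 members, against 25% of genes. The interaction ranged from 0.63 (Dnajb9, SE 0.20, FDR 0.00686) to 0.95 (Pdia6, SE 0.13, FDR 8.56e-08). None passed 2-fold by edgeR, DESeq2 or limma, where 35.2% of genes were called in either direction, most of them lower. The microglia marker sums of the groups compared differed, as given above, and their part was not tested. The all-gene median of this interaction was −0.29, so relative to all genes the members were 0.92 to 1.24 higher.

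**Figure D5:**
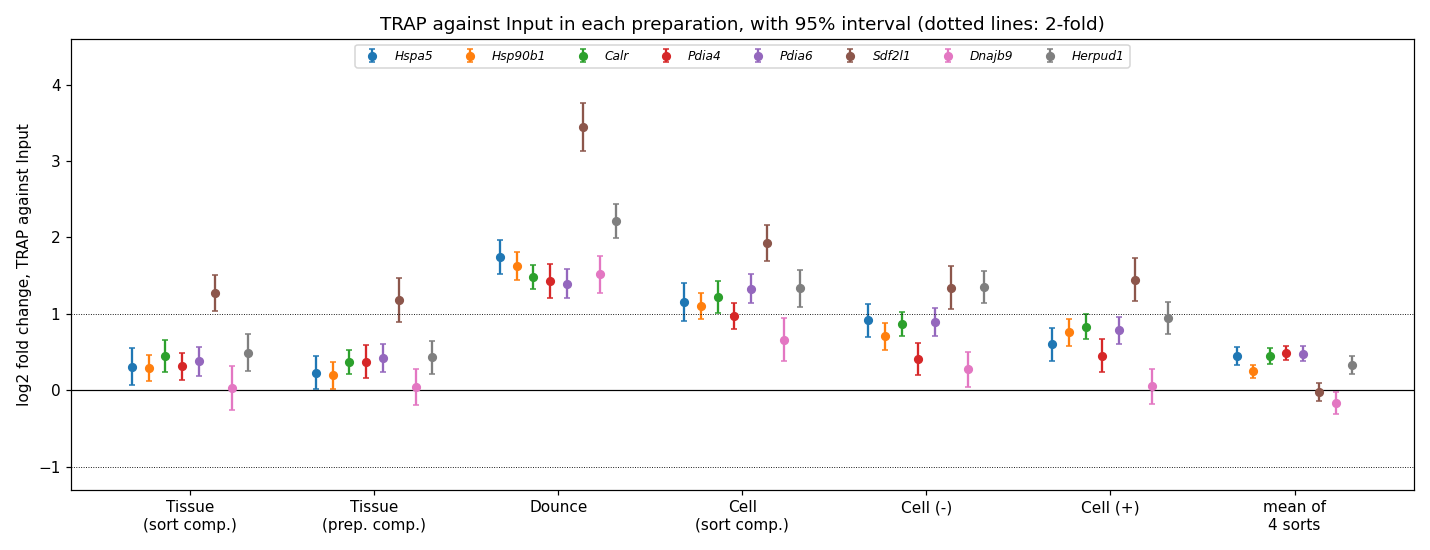
Log2 fold change of TRAP against Input (y axis; points, edgeR estimate; bars, 95% interval; dotted lines, 2-fold) for each gene in 7 preparations. Sdf2l1 is highest in Dounce at 3.45 and lies at −0.02 in the mean of the 4 sorted groups.

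The rest of the pathway was read from lists that were chosen with earlier results of these data known. In Cell-TRAP against Tissue-TRAP (sort comparison), 5 of 6 ER stress sensors and proteases were called higher, with Ern1 (IRE1) at 3.50 (SE 0.18), Eif2ak3 (PERK) at 1.79 and Mbtps2, which cleaves ATF6, at 1.58. Of 17 other ER chaperones, co-chaperones and oxidoreductases, 11 were called higher, including P4hb (1.80), Pdia5 (1.79) and Hspa13 (1.66). Of 14 tested degradation genes, 6 were called higher, with Edem1 at 2.63, Edem2 at 1.89 and Derl2 at 1.72. Of 15 translocation and signal peptide genes, 5 were called higher, led by Sec61a1, the channel subunit, at 1.87. No gene of these 4 lists was called lower. Of all genes 25.1% were called higher here, so the translocation list, at 5 of 15, was near that share. The list medians were 1.40, 1.09, 0.87 and 0.64, against −0.01 for all genes. The microglia and neuron marker sums differed between these TRAP groups, as given above, and their part in these values was not tested.

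The PERK arm did not move as a block. Of its 5 genes, Ppp1r15a (GADD34, the subunit that restores translation) was called higher at 3.82 (SE 0.29, FDR 8.88e-12) and Chac1 lower at −3.68 (SE 0.68, FDR 2.54e-05) in Cell-TRAP against Tissue-TRAP. In Cell-Input against Tissue-Input, Chac1 was also lower (−2.78), while Ppp1r15a (2.06) and Trib3 (2.06) were higher. In the sorted groups against Cell-Input, Chac1 (−2.11) and Trib3 (−2.38) were lower and Ppp1r15a (1.68) higher. The microglia marker sums differed between all these groups, as given above, and their part was not tested. In the inhibitor comparison, Ppp1r15a was the single gene of these 5 lists to be called, lower by −3.23 (SE 0.26, FDR 1.36e-07) in TRAP and by −1.35 (SE 0.15) in Input. Of all genes, 0.637% were called in either direction in that TRAP comparison and 0.311% in Input. Ppp1r15a is also a known immediate response gene. In Dounce-TRAP it was lower than in Cell (−)-TRAP by −3.27 (SE 0.27), as was Ddit3 (CHOP) by −1.21 and, in the translocation list, Sec61b by −1.15. No other gene of the 5 lists was called in that Dounce comparison, where 28.7% of all genes were called in either direction.

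In Dounce-TRAP against Dounce-Input, where 20.8% of all genes were called higher, 9 of 17 other chaperones and oxidoreductases were called higher (P4hb 2.18, Pdia3 2.00 and Canx 1.76) and 9 of 15 translocation genes (Spcs3 1.58, Srpr 1.46 and Spcs2 1.44), while Sec61g, named after its value was seen, was the 1 translocation gene called lower (−1.14). Of 14 degradation genes 5 were called higher, led by Edem1 (2.62), Edem2 (1.64) and Os9 (1.62). Of 6 sensors and proteases 3 were called higher, Ern1 (2.50), Atf6 (2.01) and Mbtps2 (1.29), and of the 5 PERK arm genes Atf4 (1.03) was. In Tissue, where 9.21% of all genes were called higher, 1 of 17 other chaperones (Pdia5, 1.26), 2 of 14 degradation genes (Edem1 2.36 and Edem2 1.84) and no gene of the other 3 lists were called between TRAP and Input of the sort comparison.

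As a description of pattern, the genes most like Hspa5 over group means of log2(CPM + 1) were Dscr3 (Pearson r = 0.991), Zfp207 (0.988), Sec23b (0.988), Gpr107 (0.987) and Rad21 (0.986) over the 12 groups of the sort comparison, among 9661 genes at 10 CPM or more. Of the members, Pdia4 (0.991) and Pdia6 (0.990) were nearest to Hspa5, and Dnajb9 (0.831) was farthest. Over the 8 groups of the cell preparation comparison, among 10939 genes, the most alike included Sh2d3c (0.996), Trim8 (0.993), Trib1 (0.989) and Exoc6 (0.987). Herpud1 (0.978) was the nearest member there, and Hsp90b1 (0.777) and Dnajb9 (0.737) were the farthest. The groups share mice, and fractions of 1 lysate share their source, so no test was made of these correlations.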

How the data were processed

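RNA-Seq libraries were poly(A) selected and directional. Per the study's methods, reads were trimmed, aligned to mm10 and stripped of duplicates in Strand NGS, and normalised with DESeq2. The deposited tables hold estimated counts per gene, mostly not whole (33.2% and 20.8% of values whole), and the authors' normalised log2 values. The estimated counts were rounded and tested with edgeR 4.0.16 (quasi-likelihood, TMM) in R 4.3.3, separately for Input and TRAP and jointly for TRAP against Input. Genes needed more than 5 counts in every library of at least 1 group, and calls followed the study's thresholds (FDR under 0.1, fold above 2). Alternatives were DESeq2 1.42.0, its size factors, limma 3.58.1 on the deposited log2 values, no filter, fewer libraries, mouse blocks and leaving out each mouse. The edgeR fit was tested on simulated counts in which few genes changed, equally up and down. That test cannot judge how the calls depend on scaling. The members and lists were chosen with earlier results of these data known. All members are named, and from each pathway list up to 3 called genes with the largest change. Titles give the mouse, so hemispheres and fractions of 1 mouse were paired by animal. The mean same-mouse correlation of deviations was 0.07 for Cell against Tissue TRAP, 0.14 for the inhibitor TRAP pairs and 0.24 for Cell TRAP against Input. Samples of 1 group and fraction come from separate mice, but several groups share mice, so without the mouse block shared animals were treated as independent. A further microglia marker and a gene among those most like Hspa5 are not reported here.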

Additional observations from a re-analysis of the deposited data

Results flagged for a closer look

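Of 144 sets of 4 or 5 libraries of 1 gene in 1 group, 10 held a library far from the rest, where chance alone gives about 1 in 20. In the sort comparison, mouse 947 was lowest for Hsp90b1 in Cell-Input (522.6 CPM) and Cell-TRAP (1057.0 CPM) and for Pdia6 in Cell-TRAP (375.5 CPM) and Tissue-TRAP (118.2 CPM). Mouse 949 was lowest for Herpud1 in Cell-Input (92.8 CPM) and mouse 945 for Sdf2l1 in Tyto-Input (108.8 CPM). In the cell preparation comparison, mouse 1362 was highest for Hsp90b1 in Cell (+)-TRAP (1285.9 CPM), mouse 1361 for Hsp90b1 in Cell (−)-Input (835.5 CPM) and mouse 156 for Hspa5 in Cell (+)-Input (712.3 CPM), and mouse 181 was lowest for Pdia6 in Dounce-Input (113.5 CPM).

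The log2 difference between TRAP and Input was larger in Cell than in Tissue of the same mice for each of the 8 members by the interaction test: Hspa5 0.85, Pdia4 0.66, Calr 0.77, Herpud1 0.84, Hsp90b1 0.81, Pdia6 0.95, Dnajb9 0.63 and Sdf2l1 0.65. All had an edgeR FDR under the threshold, where 25% of all genes were likewise higher by FDR alone. None passed 2-fold, where 35.2% of all genes were called in either direction.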

How the results depend on the processing

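Of 3800 values of the 8 members under the alternatives, 3643 kept their direction and their side of the thresholds. The number of members called was 2 in Cell against Tissue Input and became 1 with DESeq2, its size factors, limma, only the libraries compared or the mouse block, with 1 to 2 when single mice were left out. For the sorted groups against Cell in Input it was 1, with 1 to 3 when single mice were left out. For Cell (−) against Tissue Input it was 0, with 1 by limma and 0 to 1 without single mice, and for Dounce against Tissue Input 0, with 1 by DESeq2, its size factors or only the libraries compared and 0 to 1 without single mice. For TRAP against Input it was 6 in Cell of the sort comparison, with 1 by DESeq2, its size factors or limma and 2 to 6 without single mice. In Cell (−) it was 2, with 4 by DESeq2 or its size factors, 5 by limma, 6 with only the libraries compared, 6 with the mouse block and 2 to 6 without single mice. In Cell (+) it was 1, with 2 by DESeq2, its size factors or limma, 5 with only the libraries compared, 5 with the mouse block and 1 to 5 without single mice. The mouse block changed no other count of members called. The causes were not tested.

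Small differences changed sign. For the sorted groups against Cell in Input, Dnajb9 went from 0.09 to −0.12 by DESeq2 or its size factors and −0.27 by limma, and Pdia4 from 0.29 to −0.05 by limma. In TRAP, Hspa5 went from −0.01 to 0.05 with only the libraries compared and ran from −0.08 to 0.27 without single mice, and Pdia4 went from 0.01 to −0.01 by DESeq2, its size factors or limma and ran from −0.01 to 0.11 without single mice. Hspa5 in Cell (+) against Tissue Input went from 0.03 to −0.02 by DESeq2 or its size factors and ran from −0.05 to 0.09 without single mice. Dnajb9 in Tissue TRAP against Input (sort comparison) went from 0.03 to −0.05 by DESeq2 or its size factors, −0.08 by limma and −0.01 with only the libraries compared, and ran from −0.07 to 0.03 without single mice. Sdf2l1 in TRAP against Input of the sorted groups went from −0.02 to 0.03 by DESeq2 or its size factors, 0.01 by limma, 0.01 with only the libraries compared and 0.01 with the mouse block, and ran from −0.03 to 0.10 without single mice. Without single mice, the inhibitor difference in Input ran from −0.02 to 0.06 for Calr, −0.09 to 0.06 for Hsp90b1, −0.15 to 0.01 for Pdia4 and −0.14 to 0.11 for Sdf2l1, that in TRAP from −0.08 to 0.02 for Pdia4, and the TRAP minus Input difference with against without inhibitors from −0.07 to 0.01 for Calr, −0.02 to 0.13 for Hsp90b1 and −0.02 to 0.11 for Pdia4. Dnajb9 in Tissue TRAP against Input of the cell preparation comparison ran from −0.06 to 0.15.

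Over all genes, the share of calls that were higher moved by over 10 points in these cases: sorted TRAP against Tissue 41.2% to 29.9% by limma, Cell TRAP against Input 35.2% to 21.4% by DESeq2, 21% with its size factors and 18.8% by limma, the Cell against Tissue interaction 16.3% to 5.51%, 5.23% and 5.41% in the same order, Tissue TRAP against Input 83.1% to 70.2% by limma and 72.9% with the mouse block, Dounce TRAP against Input 43.8% to 30.4% and Dounce against Cell (−) TRAP 72% to 58.5% by limma, Cell (−) TRAP against Input 22.3% to 36.2% and Cell (+) 21.3% to 33.8% with only the libraries compared, and the inhibitor interaction 0% to 12.2% by DESeq2. Counts of called genes moved by over 1.5 times with only the libraries compared between the sorts (1168 to 483 in Input and 626 to 396 in TRAP) and in sorted TRAP against Input (3002 to 1463, and 1452 with the mouse block). They also moved with the mouse block in the inhibitor TRAP comparison (94 to 150) and its interaction (23 to 53, and 41 by DESeq2). The Dounce-TRAP libraries were the shallowest, and the part of depth in their differences was not tested.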
